A study of Mus musculus with 24 samples.

Results

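The genes described here are the 37 genes of the mouse mitochondrial genome, taken as every gene in the deposited count table whose symbol starts with mt-. They are 37 of the 55025 gene symbols in the table, and comprise 13 protein-coding genes, 2 ribosomal RNA (rRNA) genes and 22 transfer RNA (tRNA) genes. All 37 are annotated on chromosome M of GRCm38, between bases 1 and 15422. The 24 RNA libraries came from TCRα-/- mice, animals without a working alpha chain of the T cell receptor, which lack conventional alpha beta T cells and keep gamma delta T cells. Every mouse carried a pancreatic tumor grown in the pancreas from implanted M8 organoids that had been passaged in live animals, so treated and vehicle groups share both the genotype and the tumor. The 8 groups of 3 libraries combine tissue (spleen or tumor), sorted population (CD45+ CD4+ or CD45+ CD8+ cells, labelled CD4 and CD8 T cells) and treatment. LCL161, which antagonises the inhibitor of apoptosis proteins cIAP1 and cIAP2, was dosed orally at 75 mg/kg on an every 3 days schedule starting on day 4, for 3 doses, and tissue was taken on day 12, with vehicle on the same schedule. The sources used here give no ages, and there is no wild-type group. The labels do not say that replicates came from separate mice, and p-values therefore measure only the spread between these samples.

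Mitochondria keep a small circular genome of their own. It is copied into long RNAs from both strands, and these are cut into single messenger, ribosomal and transfer RNAs, mostly at the tRNA sequences that lie between the other genes. The protein genes encode core subunits of the respiratory chain and of ATP synthase: mt-Nd1 to mt-Nd6 and mt-Nd4l belong to complex I, which takes electrons from NADH, mt-Cytb to complex III, mt-Co1 to mt-Co3 to complex IV, the oxidase that reduces oxygen, and mt-Atp6 and mt-Atp8 to ATP synthase. The rRNAs and tRNAs serve the mitochondrial ribosome that translates those messages, and T cells draw on this machinery when they are activated and divide.

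Because the genome is compact, neighbouring genes share bases and reads cannot always be assigned to 1 of them. The longest overlap is between the ATP synthase genes, where the last 43 bases of mt-Atp8 are also the first of mt-Atp6. Another 7 bases belong to both mt-Nd4l and mt-Nd4. Both junctions are shown with the shared bases in capitals, since they bear on how far the counts of each pair can be told apart (GRCm38, plus strand, chrM:7912-7984 and chrM:10152-10188).
mt-Atp8 and mt-Atp6: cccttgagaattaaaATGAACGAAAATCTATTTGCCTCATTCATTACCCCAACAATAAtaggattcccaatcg
mt-Nd4l and mt-Nd4: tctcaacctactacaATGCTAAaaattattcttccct

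A larger uncertainty comes from copies of mitochondrial DNA in nuclear chromosomes. Transcripts outside chromosome M were compared with the mt- genes, and 11 annotated pseudogenes matched 9 of them at 95% identity or more over at least 100 bases. Of these, 7 lie side by side on the minus strand of chromosome 1, chr1:24611535-24616197. In that block Gm10925, Gm28661, Gm28437 and Gm10222 matched mt-Atp6, mt-Co2, mt-Co3 and mt-Nd4l at 100% identity over their whole aligned length, and Gm28439 matched the first 876 bases of mt-Nd4 at 100%. Gm28438 matched mt-Nd3 at 99.7%, and Gm29216 the last 483 bases of mt-Co1 at 99.8%. Less similar copies are Gm13339, Gm13340 and Gm13341 on chromosome 2, which matched mt-Nd2 (96.7%), mt-Co1 (97.6%) and mt-Co2 (95.9%), and Gm4076 on chromosome 13, which matched mt-Nd5 (95.2%). Stretches of 90 bases are shown where both copies aligned without gaps and together differed most from the gene. For mt-Co1 the stretch had also to hold a base where Gm29216 differs. These stretches are therefore not typical of the genes. Over all aligned bases, Gm13341 had 16 mismatched and 12 in gaps of 684, and Gm29216 had 1 mismatched of 483 and 0 in gaps. The mt-Co2 stretch (chrM:7457-7546) and its copy Gm28661 (chr1:24615032-24615121) had 0 differing bases, while Gm13341 (chr2:22587441-22587530) had 7, in capitals.
mt-Co2: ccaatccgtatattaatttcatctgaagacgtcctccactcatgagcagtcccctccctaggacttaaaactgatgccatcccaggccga
Gm28661: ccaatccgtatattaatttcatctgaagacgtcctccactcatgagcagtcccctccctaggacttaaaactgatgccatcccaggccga
Gm13341: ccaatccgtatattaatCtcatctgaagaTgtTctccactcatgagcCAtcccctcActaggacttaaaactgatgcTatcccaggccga
In mt-Co1 (chrM:6390-6479) the copy Gm29216 (chr1:24616099-24616188) differed at 1 base and Gm13340 (chr2:22588496-22588585) at 2.
mt-Co1: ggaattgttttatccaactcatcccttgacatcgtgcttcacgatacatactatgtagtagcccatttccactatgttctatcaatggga
Gm29216: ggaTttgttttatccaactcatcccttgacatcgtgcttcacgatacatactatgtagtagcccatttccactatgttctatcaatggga
Gm13340: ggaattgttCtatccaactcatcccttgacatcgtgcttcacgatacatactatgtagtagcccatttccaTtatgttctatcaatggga

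These identities showed in the counts. Gm28661 and mt-Co2 held nearly the same count in each of the 24 libraries, gene minus copy running from -6.16 to -0.67 counts where the copy had 10690 to 23628. The ratio of copy to gene was also close to 1 for Gm28437 and mt-Co3 (median 1.00), Gm10222 and mt-Nd4l (0.994), Gm28438 and mt-Nd3 (0.979) and Gm10925 and mt-Atp6 (1.07). Copies of part of a gene or of lower identity held less, with medians of 0.336 for Gm29216 and mt-Co1, 0.322 for Gm28439 and mt-Nd4, 0.174 for Gm13341 and mt-Co2, 0.104 for Gm13340 and mt-Co1, 0.0453 for Gm13339 and mt-Nd2 and 0.00536 for Gm4076 and mt-Nd5. In all, the copies held counts equal to 34.1 to 40.5% of those of the mt- genes. Of the non-zero values of mt- genes 80.4% were not whole numbers, against 52.7% over all genes (tolerance 0.001). The sources used here do not say how reads with several matches were shared, so the levels of these 9 genes are uncertain, most for mt-Atp6, mt-Co2, mt-Co3, mt-Nd3 and mt-Nd4l, whose copies hold about as many counts as the gene.

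**Figure D1:**
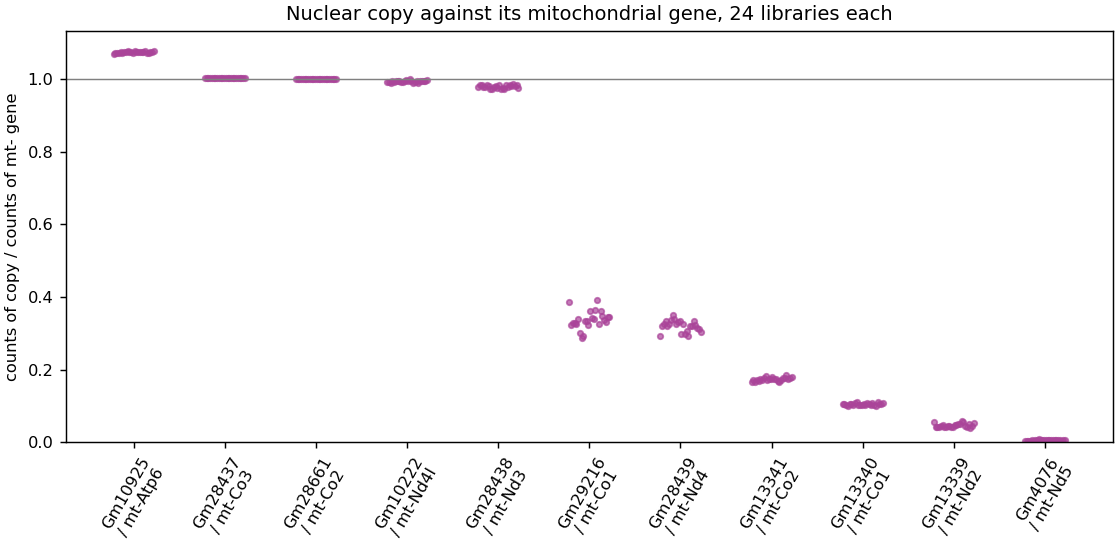
Counts of each nuclear copy divided by counts of the mt- gene it matches, 1 point per library, with all 24 libraries for each pair. The full-length copies on chromosome 1 lie close to 1 in every library, and the partial or less similar copies lie below 0.4.

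The mt- genes took 1.21 to 2.38% of all counts per library (median 1.44%), or 214379 to 521188 counts, and 1.63 to 3.27% together with the nuclear copies. Within these counts the protein genes held 63 to 75.9%, the rRNA genes 23.7 to 36.6% and the tRNA genes 0.359 to 0.496%. Levels are in CPM, a gene's counts for each 1e6 counts after scaling of the library total, and genes are compared with each other only as CPM per kilobase of annotated length (CPM per kb). By that measure the large rRNA gene mt-Rnr2 stood highest, with a median of 2708 CPM per kb over the 24 libraries, against 413 for the small rRNA gene mt-Rnr1. The sources used here do not say whether poly(A) selection or rRNA depletion was used, and the level of rRNA depends on it. Among protein genes the order was mt-Co3 (median 2402 CPM per kb), mt-Atp6 (2050), mt-Co1 (1790), mt-Co2 and mt-Cytb (both 1082), mt-Atp8 (851) and mt-Nd1 (817). The other complex I genes were lower, at 312 for mt-Nd4, 292 for mt-Nd5, 273 for mt-Nd2, 243 for mt-Nd6, 124 for mt-Nd3 and 88.6 CPM per kb for mt-Nd4l. The ranges over libraries of neighbouring genes in this order overlap. With the copies added, mt-Co3 reached 4811, mt-Atp6 4253, mt-Co1 2566 and mt-Co2 2358 CPM per kb, and mt-Co3 and mt-Atp6 then stood above mt-Rnr2.

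The tRNA genes were thinly counted. All 22 together held 796 to 2526 counts per library, and mt-Ts1, a serine tRNA, held 59.6 to 67.4% of these. Its median was 610 CPM per kb, against 68.4 for the glutamate tRNA mt-Te, the next highest. The sequence of mt-Ts1 (chrM:6870-6938, minus strand) is printed because the gene lies opposite the end of mt-Co1, with the shared bases in capitals, and the sources used here do not say whether reads were counted by strand. mt-Te is printed for its place beside mt-Nd6.
mt-Ts1: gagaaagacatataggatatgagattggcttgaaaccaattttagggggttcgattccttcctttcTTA
mt-Te: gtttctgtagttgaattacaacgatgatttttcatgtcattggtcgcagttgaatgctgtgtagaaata
mt-Te (chrM:14071-14139, minus strand) adjoins mt-Nd6, the only protein gene of the minus strand. Over the 24 libraries the log2 level of mt-Te had a correlation of 0.972 with that of mt-Nd6, the highest of its correlations with the 15 rRNA and protein genes (median 0.892). For the tyrosine tRNA mt-Ty the highest of the 15 was 0.859 with mt-Co1, the gene next to it on the opposite strand, while mt-Ts1 had 0.78 with mt-Co1 and a median of 0.807. These correlations are descriptions, since all genes share the libraries and their depth. The phenylalanine, histidine, lysine and arginine tRNA genes mt-Tf, mt-Th, mt-Tk and mt-Tr, and mt-Tl2 and mt-Ts2, held at most 6.25 counts in any library and failed the filter on low counts. The remaining 31 members (all 13 protein and both rRNA genes, and 16 tRNA genes) were tested among the 20203 genes that passed it.

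Levels of the 15 rRNA and protein genes were correlated across libraries. Over the 105 pairs, the correlation of log2 levels across the 24 libraries had a median of 0.877 and ran from 0.422, for mt-Nd5 with mt-Rnr1, to 0.979, for mt-Atp6 with mt-Co2. The lowest 6 pairs each included mt-Rnr1. With group means removed the median was 0.58. The points share library depth and scaling, and no p-value is given.

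The sorted populations carried their defining markers. In the CD4-sorted libraries Cd4 reached 687 to 1431 CPM and Cd8a 0.0549 to 3.99 CPM. In the CD8-sorted libraries Cd8a reached 565 to 1159 CPM and Cd4 7.07 to 31.7 CPM. The CD8 markers Cd8a and Cd8b1 together summed to 5.67 to 101 CPM in CD4-sorted libraries, highest in spleen with vehicle. In CD8-sorted libraries they summed to 1019 to 2168 CPM. Cd3e, a subunit of the T cell receptor complex, was at 514 to 1569 CPM in all of them. Trac, the alpha chain constant gene, was counted at 9.29 to 35.4 CPM in CD8-sorted and 63.1 to 1082 CPM in CD4-sorted libraries. The labels do not say which part of the locus was deleted, so this does not check the genotype. Markers of other cells were present in both sorts. Summed B cell markers lay between 645 and 2316 CPM in spleen and between 27.4 and 264 CPM in tumor, and those of monocytes and macrophages between 86 and 402 CPM in spleen and between 592 and 5934 CPM in tumor. Spleen CD4 libraries varied widely in others. Erythroid markers summed to 254 to 3772 CPM with vehicle and 195 to 11306 CPM with LCL161. Plasmacytoid dendritic cell markers summed to 487 to 2248 and 281 to 786 CPM, and neutrophil markers to 40.9 to 500 and 200 to 1913 CPM, in the same order. In such bulk samples, fewer cells of a type and less RNA per cell cannot be told apart. Library totals ran from 15.5 to 25.1 × 1e6 counts. One spleen library, CD4 LCL161 replicate 1, had 356 CPM of mt-Nd6 against 200 and 179 CPM in the other replicates.

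The main comparison of the study is LCL161 against vehicle, and it showed most in the spleen CD8 libraries. There 11 of the 31 tested mt- genes were higher and 0 lower (edgeR quasi-likelihood test, adjusted p under 0.05 over all 20203 genes), where 4.11% of all genes were called higher and 4.22% lower (8.33% in either direction). They were both rRNA genes, 8 of 13 protein genes and 1 of 16 tRNA genes. mt-Co1, the catalytic subunit of complex IV, stood at 2904, 2854 and 2867 CPM in the vehicle libraries. In the LCL161 libraries it stood at 3794, 5021 and 4504 CPM. All 3 treated libraries lay above all 3 vehicle libraries, a 1.54-fold difference (log2 0.63 ± 0.10 SE, adjusted p = 0.00225). mt-Rnr2 went from 3896, 4122 and 3818 CPM to 6274, 6590 and 5568 CPM, 1.56-fold higher and again without overlap (log2 0.64 ± 0.11, adjusted p = 0.00269).

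Among the other protein genes, mt-Nd1 of complex I went from 801, 808 and 749 CPM to 1058, 1262 and 1145 CPM (log2 0.55 ± 0.11, adjusted p = 0.00563). mt-Cytb rose from 1294 ± 16.7 to 1815 ± 115 CPM (mean ± SD, n = 3 here and below; log2 0.49 ± 0.10, adjusted p = 0.00861). These are subunits of different complexes. The remaining rises were mt-Nd3 (log2 0.71), mt-Co3 (0.47), mt-Atp6 (0.43), mt-Atp8 (0.50), mt-Rnr1 (0.79) and mt-Co2 (0.32), with adjusted p from 0.00936 to 0.033. The cysteine tRNA mt-Tc rose from 2.08 ± 0.152 to 4.37 ± 0.657 CPM (log2 1.06 ± 0.30, adjusted p = 0.0361). Those that did not pass included mt-Nd2 (log2 0.36), mt-Nd4l (0.43), mt-Nd4 (0.22), mt-Nd5 (0.20) and mt-Nd6 (0.24). Over the 31 the median was 0.47, against 0.07 over all genes tested, and 20 had every treated library above every vehicle library, as had 21.1% of all genes, while 0 had every treated library below (17.8% of all genes).

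**Figure D2:**
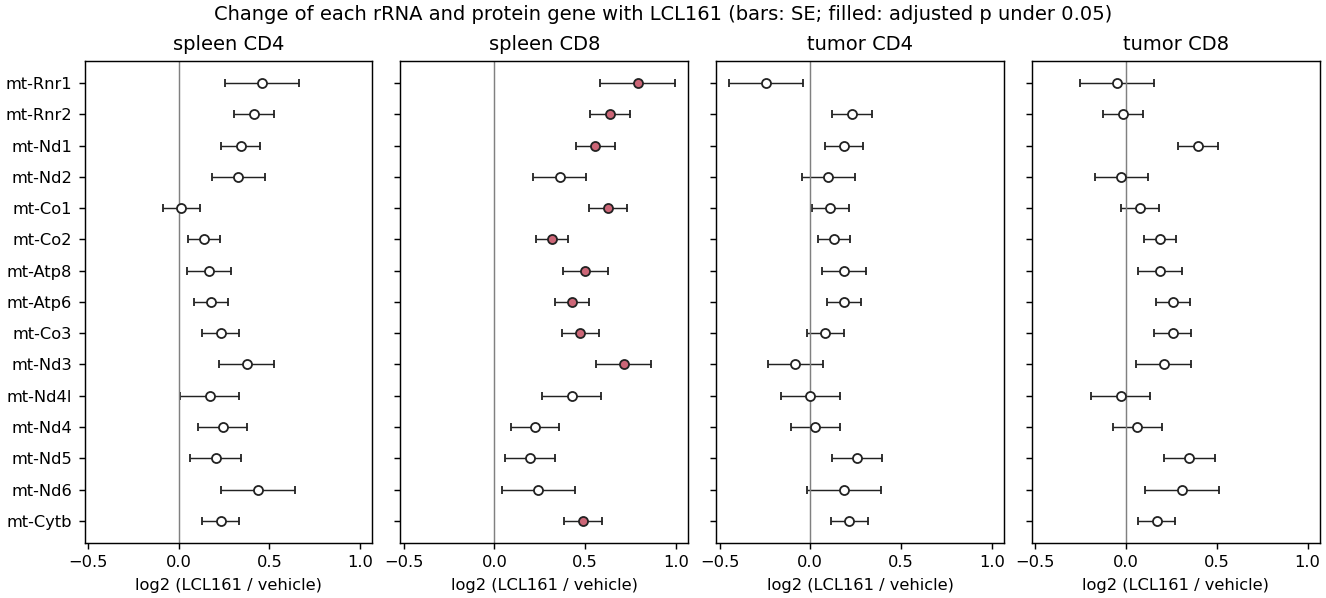
Log2 difference between LCL161 and vehicle for the 2 rRNA and 13 protein genes, in genome order, with SE bars, 1 panel per sorted population. Filled points have an adjusted p under 0.05 and are found in spleen CD8 alone, where mt-Nd2, mt-Nd4l, mt-Nd4, mt-Nd5 and mt-Nd6 are open.

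The number called in spleen CD8 depended on single libraries. It was 5 without LCL161 replicate 2, 3 without LCL161 replicate 3, 7 without vehicle replicate 2 and 4 without vehicle replicate 3. mt-Co1, mt-Rnr2 and mt-Nd1 passed without each of the 6 libraries in turn and under all 16 alternatives computed for each. The nuclear copies followed their genes: Gm13340, the mt-Co1 copy that can be told apart at some bases, had a log2 difference of 0.69 ± 0.12 (adjusted p = 0.00374). Adding the copies to their mt- genes left the count at 11. Log2 counts of Gm13340 and mt-Co1 had a correlation of 0.995 over the 24 libraries. How reads were shared between copies and genes is not known, so the copies are not separate evidence for these rises.

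As a share of all counts, the mt- genes took 1.52, 1.52 and 1.46% in the spleen CD8 vehicle libraries and 2.1, 2.37 and 2.12% with LCL161, a ratio of means of 1.47. With the copies added they took 2.01 to 2.1% and 2.81 to 3.21%. The ratio for spleen CD4 was 1.17, in tumor CD8 1.08 and in tumor CD4 1.04. In spleen CD4 the share was 1.82 to 1.91% with vehicle and 1.93 to 2.38% with LCL161. In tumor CD8 it was 1.21 to 1.35% and 1.37 to 1.42%, again without overlap. In tumor CD4 the groups overlapped, at 1.22 to 1.43% and 1.35 to 1.39%.

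**Figure D3:**
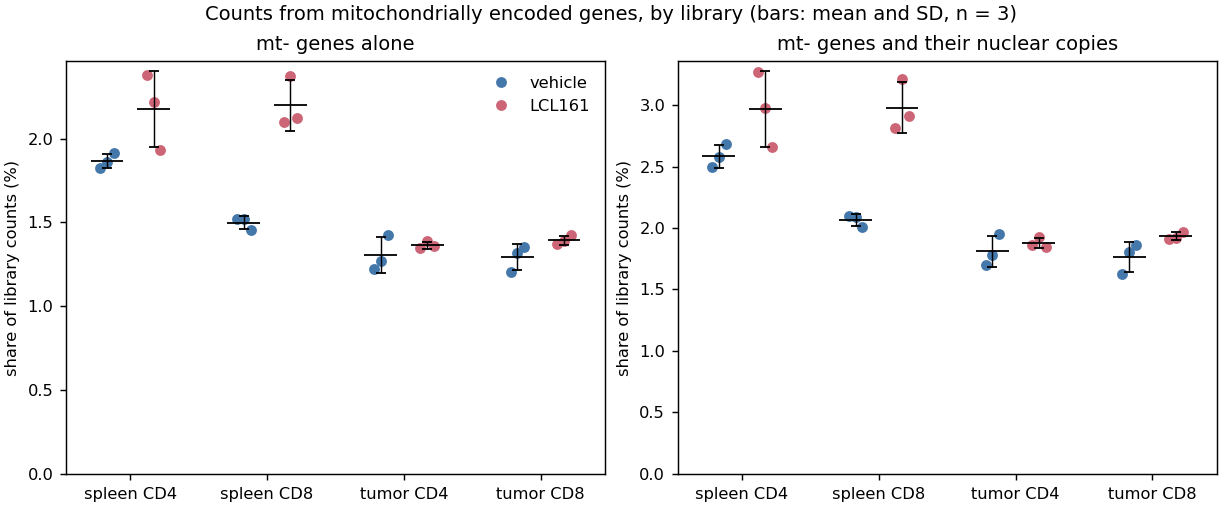
Percent of each library's counts from the 37 mt- genes alone (left) and with the 11 nuclear copies added (right), by sorted population and treatment, with mean and SD bars of 3 libraries. Spleen libraries lie above tumor libraries, and spleen CD8 shows the widest gap between vehicle and LCL161.

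Other markers moved with treatment in the spleen CD8 libraries, and some did in the other populations. The 8 conventional dendritic cell markers summed to 3201 to 3455 CPM with vehicle and 760 to 1307 CPM with LCL161, with 3 of 8 lower, none at 0 in either group. The 10 proliferation markers summed to 786 to 1003 CPM and 1138 to 2114 CPM, with 7 of 10 higher, and the 8 T cell markers to 2369 to 2674 CPM and 3226 to 3939 CPM, with 2 of 8 higher. The CD4 lineage, monocyte and macrophage, and endothelial lists each had 1 gene lower. The epithelial and dissociation stress lists each had 1 higher. Over all genes 4.11% were higher and 4.22% lower. In tumor CD4 the monocyte and macrophage markers summed to 2339 to 5934 CPM with vehicle. With LCL161 they summed to 664 to 1323 CPM, with 1 of 9 lower. In tumor CD8 they summed to 1276 to 1962 and 592 to 898 CPM, with 0 of 9 called. In spleen CD4 the 6 gamma delta T cell markers summed to 255 to 1518 and 36.2 to 128 CPM, with 1 of 6 lower. Over all genes 0.193%, 0.0148% and 0.198% were lower, in that order. The part of these shifts in the levels of the mt- genes was not tested.

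Nuclear genes for mitochondrial functions were also called in spleen CD8. Of 78 mitochondrial ribosomal protein genes 6 were higher and 0 lower (median log2 0.28), led by Mrps23 (log2 0.56, adjusted p = 0.00786), Mrpl39, Mrpl3, Mrpl13 and Mrps9. Of 74 nuclear respiratory chain subunit genes 6 were higher and 0 lower (median 0.30), led by Sdhb of complex II (log2 0.51, adjusted p = 0.0171), Atp5j, Ndufb7, Uqcrh and Ndufb5. These counts compare with 4.11% higher over all genes. With an unadjusted p under 0.05 there were 42 of the 74 and 32 of the 78, all higher. At that p 13.4% of all genes were higher and 11.6% lower. Of 29 genes for transcription and processing of mitochondrial RNA, 1 passed, Mterf1b, a termination factor family member (log2 0.77, adjusted p = 0.0342), and of 11 for replication of the genome and its nucleotide supply 0 passed, with 2 at an unadjusted p under 0.05 (25% of all genes). Fars2, a mitochondrial phenylalanine tRNA synthetase, rose (log2 0.54) as the only call among 21 genes of its list. Among 10 regulators of mitochondrial biogenesis, of which 9 were tested, Gabpb1 was higher (log2 0.79, adjusted p = 0.00449) and Esrra, a nuclear receptor, lower (log2 -0.67, adjusted p = 0.0169).

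In spleen CD4, 0 of 31 mt- genes passed (0.436% of all genes did, 0.238% higher and 0.198% lower), with 8 at an unadjusted p under 0.05 (16% of all genes). DESeq2 called 2, mt-Rnr2 and mt-Nd1, and limma voom 0. Every one of the 15 rRNA and protein genes had an estimate above 0, with a median of 0.23 for the protein genes and 0.02 over all genes; without scaling, mt-Co1 alone fell below 0. mt-Rnr2 went from 4840, 3965 and 3968 CPM to 5763, 6211 and 5073 CPM, without overlap (log2 0.42 ± 0.11, adjusted p = 0.0947). mt-Co1 had 3371, 3386 and 3515 CPM against 3524, 3559 and 3296 CPM, groups that overlap (log2 0.01). The treated libraries were all higher in 5 members (7.67% of all genes) and all lower in 0 (6.95%). Of the nuclear lists, 1 biogenesis regulator passed, Myc (log2 1.22, adjusted p = 0.0362). Of the 74 nuclear respiratory chain genes 0 passed (median log2 0.32). At an unadjusted p under 0.05 stood 49 of them, all higher, where 8.63% of all genes were higher and 7.35% lower at that p.

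In the tumor libraries no mt- gene passed. In tumor CD4 the count was 0 of 31 by edgeR (0.307% of all genes, 0.114% higher and 0.193% lower), DESeq2 and limma voom, with 0 at an unadjusted p under 0.05 (14.1% of all genes). mt-Co1 stood at 2183, 1886 and 2677 CPM in vehicle libraries, and the treated values of 2419, 2489 and 2376 CPM lay inside that range. The treated libraries were all higher in 0 members (7.19% of all genes) and all lower in 2 (8.11%). In tumor CD8 0 of 31 passed (0.247% of all genes, 0.233% higher and 0.0148% lower), with 5 at an unadjusted p under 0.05 (10.8% of all genes) and 1 called by DESeq2 and by limma voom. That gene was mt-Nd1, which went from 502, 586 and 638 CPM to 741, 778 and 753 CPM (log2 0.40 ± 0.11, adjusted p = 0.161 by edgeR). The treated libraries were all higher in 9 members (11.7% of all genes) and all lower in 3 (11.9%). Gabpb1, the biogenesis regulator that rose in spleen CD8, was also higher in tumor CD4 (log2 0.80, adjusted p = 0.0286) and tumor CD8 (0.93, adjusted p = 0.014).

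A call in spleen CD8 and none elsewhere does not show that the effects differ, so the differences were tested directly. None of the 31 passed for CD8 minus CD4 in spleen (0.247% of all genes, 0.0445% higher and 0.203% lower) or in tumor (0%), nor for tumor minus spleen in CD4 (0.0099%) or in CD8 (0.0247%). At an unadjusted p under 0.05 stood 2, 0, 2 and 8 members, in that order, against 12.1, 5.57, 10.3 and 9.04% of all genes. The LCL161 effect on mt-Co1 was 0.61 ± 0.15 larger (log2) in spleen CD8 than in spleen CD4, with an adjusted p of 0.0745 by edgeR, 0.00333 by DESeq2 and 0.00308 by limma voom. Over all 23 alternatives that p ran from 0.00308 to 0.212. The effect on mt-Rnr2 was 0.66 ± 0.16 smaller in tumor CD8 than in spleen CD8 (adjusted p = 0.163, and 0.00564 to 0.387 over 23 alternatives). Without spleen CD8 LCL161 replicate 1, mt-Co1 passed in both of these contrasts (adjusted p = 0.0162 and 0.0499). The contrasts share libraries with each other and with the comparisons above.

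**Figure D4:**
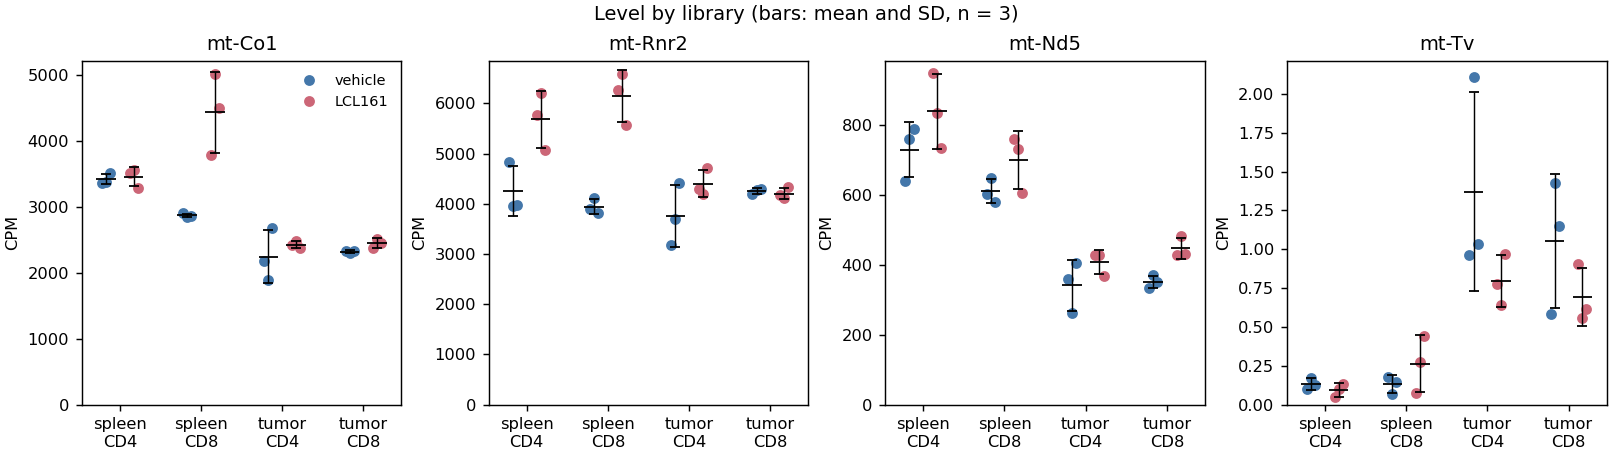
CPM of mt-Co1, mt-Rnr2, mt-Nd5 and mt-Tv in every library, by sorted population and treatment, with mean and SD bars of 3 libraries. mt-Co1 with LCL161 lies above vehicle in spleen CD8, mt-Nd5 is lower in all tumor than in all spleen libraries, and mt-Tv is higher in all tumor libraries.

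Tumor and spleen were compared within each sort. In CD4-sorted cells from vehicle-treated mice, 13 of 31 mt- genes were lower in tumor than in spleen and 1 was higher, where 6.85% of all genes were lower and 9.67% higher (16.5% in either direction). The 13 were 12 of the 13 protein genes and mt-Te. mt-Cytb stood at 1755, 1939 and 1881 CPM in spleen and 988, 832 and 1047 CPM in tumor, 1.94-fold lower (log2 -0.96 ± 0.10, adjusted p = 1.36e-05). mt-Nd5, the largest gene and a proton-pumping subunit of complex I, stood at 641, 760 and 789 CPM in spleen and 359, 262 and 405 CPM in tumor, 2.13-fold lower (log2 -1.09 ± 0.14, adjusted p = 5.47e-05). Neither gene's groups overlap. Every tumor library lay below every spleen library in 17 members (14.1% of all genes) and above in 1 (16.9%).

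Most of the larger falls were of complex I genes. mt-Nd4l (log2 -0.97), mt-Nd6 (-0.91), mt-Nd4 (-0.86) and mt-Nd2 (-0.78) each had a larger fall than mt-Co1 (-0.61), mt-Atp6 (-0.51), mt-Nd1 (-0.45), mt-Atp8 (-0.41), mt-Co2 (-0.40) or mt-Co3 (-0.37), with adjusted p between 0.000358 and 0.0259 over these 10 genes. mt-Nd3 was at log2 -0.36 and did not pass (adjusted p = 0.117). The rRNA genes did not pass either: mt-Rnr2 had 4840, 3965 and 3968 CPM in spleen and 3180, 3690 and 4405 CPM in tumor (log2 -0.18), and mt-Rnr1 447 ± 81.4 and 489 ± 98.6 CPM (log2 0.13). mt-Te fell from 7.12 ± 2.07 to 3.65 ± 0.717 CPM (adjusted p = 0.0279). Fitted on the 6 libraries compared alone, 5 of the 14 calls were left.

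In CD8-sorted cells the same contrast gave 6 members lower, where 6.89% of all genes were lower, and 1 higher, where 8% were (14.9% in either direction). Every tumor library lay below every spleen library in 17 members (22.4% of all genes) and above in 4 (25.3%). mt-Nd5 had the lowest adjusted p of these, at 602, 648 and 581 CPM in spleen and 333, 370 and 351 CPM in tumor (log2 -0.80 ± 0.14, adjusted p = 0.000789). It was followed by mt-Cytb (log2 -0.51), mt-Nd1 (-0.45), mt-Nd4l (-0.68), mt-Nd4 (-0.50) and mt-Nd2 (-0.54), with adjusted p from 0.00244 to 0.0175. mt-Co1 was at 2904, 2854 and 2867 CPM in spleen and 2333, 2294 and 2338 CPM in tumor, and missed the threshold (log2 -0.31 ± 0.10, adjusted p = 0.0528) although the groups do not overlap. The rRNA genes stood at log2 0.11 (mt-Rnr2) and -0.02 (mt-Rnr1), and neither passed. The number called grew from 7 to 11 with other scalings (RLE, or factors from nuclear genes), to 12 with DESeq2, 13 with the 6 libraries compared alone, 17 with limma voom and 19 with LCL161 libraries in place of vehicle. In that last setting mt-Rnr2 was lower in tumor (log2 -0.55, adjusted p = 0.00705, against 0.00705 to 0.911 over its 18 alternatives).

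**Figure D5:**
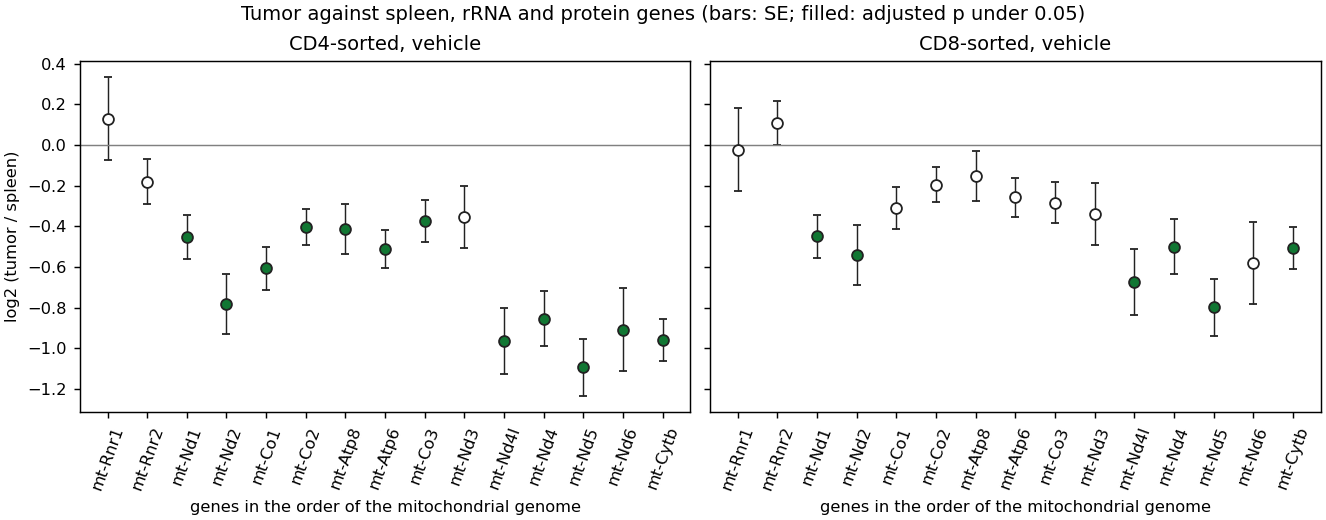
Log2 difference between tumor and spleen in vehicle libraries for the 2 rRNA and 13 protein genes in the order of the mitochondrial genome, with SE bars, CD4-sorted left and CD8-sorted right. Filled points have an adjusted p under 0.05, the rRNA genes at the start lie near 0, and the genes from mt-Nd4l to mt-Cytb lie lowest on the left.

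Along the genome the tumor minus spleen difference was lower toward the end. Over the 14 rRNA and protein genes of the plus strand, Spearman's correlation between start position and log2 difference was -0.66 in CD4 and -0.64 in CD8. The trend was not particular to tissue. For LCL161 against vehicle the correlation was -0.31 in spleen CD4, -0.53 in spleen CD8, 0.08 in tumor CD4 and 0.26 in tumor CD8. For CD8 against CD4 with vehicle it was -0.49 in spleen and 0.01 in tumor. Genes are not independent replicates, the 2 rRNA genes lie at the start, and all these values are descriptions. Within the mt- counts, complex I genes held 14.5 to 17.3% in spleen CD4 vehicle libraries and 12 to 14.3% in tumor CD4 vehicle libraries. In CD8 the ranges were 16 to 16.3% and 12.2 to 13.1%. rRNA held 23.7 to 29.9% and 30.5 to 34.1% in CD4, and 27.8 to 29.4% and 34.2 to 36.6% in CD8.

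The valine tRNA gene mt-Tv lies between the rRNA genes (chrM:1025-1093, plus strand) and was the one member called higher in tumor. It is printed for that reason.
mt-Tv: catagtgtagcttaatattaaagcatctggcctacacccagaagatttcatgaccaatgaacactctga
In spleen CD4 vehicle libraries it stood at 0.0971, 0.173 and 0.123 CPM, and in tumor CD4 vehicle libraries at 0.965, 2.11 and 1.04 CPM (log2 3.31 ± 0.55, adjusted p = 0.000589). In CD8 the values were 0.179, 0.066 and 0.146 CPM in spleen and 0.58, 1.42 and 1.15 CPM in tumor (log2 2.88 ± 0.55, adjusted p = 0.00144). The counts are small, and mt-Tv passed the filter on low counts through the tumor libraries, where it was high. With no filter the differences were 3.26 (adjusted p = 0.00106) in CD4 and 2.84 (adjusted p = 0.00269) in CD8. Summed over 3 libraries, vehicle CD4 had 8 counts in spleen and 87 in tumor, a ratio of 9.94 (exact 95% interval 4.83 to 23.8, counting error only), and CD8 had 9 and 74, a ratio of 7.73 (3.86 to 17.6). With LCL161 the ratios were 7.97 (3.59 to 20.9) in CD4 and 2.61 (1.4 to 5.04) in CD8, and the CD8 difference then missed the threshold (adjusted p = 0.114, the highest over its 17 alternatives, which started at 6.9e-05). Over all 24 libraries mt-Tv held 1 to 9 counts in spleen and 8.5 to 41.5 in tumor, and it was the only tested member whose share of mt- counts did not overlap between the 12 tumor and the 12 spleen libraries.

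Markers of other cells also differed between tissues. In vehicle CD4 libraries the 9 monocyte and macrophage markers summed to 87.3 to 286 CPM in spleen and 2339 to 5934 CPM in tumor, with 8 of 9 higher. The 8 B cell markers summed to 905 to 2316 and 34.1 to 264 CPM, with 8 of 8 lower, and the 9 dissociation stress genes to 1190 to 1457 and 3519 to 4913 CPM, with 7 of 9 higher. In vehicle CD8 libraries the monocyte and macrophage sum was 186 to 253 CPM in spleen and 1276 to 1962 CPM in tumor (8 of 9 higher). The dendritic cell sum was 3201 to 3455 and 579 to 923 CPM (6 of 8 lower), the B cell sum 773 to 979 and 31.9 to 58.7 CPM (7 of 8 lower), the T cell sum 2369 to 2674 and 4111 to 4821 CPM (5 of 8 higher) and the dissociation sum 1028 to 1536 and 2624 to 5083 CPM (6 of 9 higher). None of these lists had a member at 0 in all libraries of either group. Acinar markers were higher in tumor in 7 of 7 genes in CD4 and 6 of 7 in CD8, and fibroblast markers in 3 of 6 and 4 of 6. Of 5 tested epithelial markers, 3 were higher and 1 lower in each sort. Plasma cell markers were lower in 4 of 5 in each sort, with 1 higher in CD4. The acinar, fibroblast, epithelial and plasma cell lists did have members at 0 in a whole group. Over all genes 9.67% were higher and 6.85% lower in CD4, and 8% higher and 6.89% lower in CD8. Their part in the tissue differences of the mt- genes was not tested.

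In CD4, 23 of the 74 nuclear respiratory chain genes were higher in tumor and 1 lower (median log2 0.33), where 9.67% of all genes were higher and 6.85% lower. The higher genes included Ndufv3 of complex I (log2 0.70, adjusted p = 0.00135), Cox7c of complex IV (log2 0.82, adjusted p = 0.00174), Atp5l, Uqcrq and Cox5a. In the same contrast 7 of 78 mitochondrial ribosomal protein genes were higher and 0 lower, led by Mrps18c (0.63) and Mrpl33 (0.72), a share higher that is near the 9.67% of all genes. Of 29 genes for transcription and processing of mitochondrial RNA, 1 was lower and 1 higher. The lower one was Tfam, which packages mitochondrial DNA and activates its transcription (log2 -0.46, adjusted p = 0.0182). Rexo2, an exonuclease of short RNAs, was the higher one (0.52). Tk2, which supplies nucleotides for the genome, was lower (-0.63), the only call among 11 genes of its list. Hars2, the mitochondrial histidine tRNA synthetase, was lower (-0.41), the only call among 21. Myc was higher (0.99), the only call among 9 tested biogenesis regulators. These calls stand beside 6.85% of all genes lower and 9.67% higher.

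In CD8 0 of the 74 nuclear respiratory chain genes passed, with 13 at an unadjusted p under 0.05, 12 of them higher, where 15.2% of all genes were higher and 12.8% lower at that p. Of the 29 genes for transcription and processing of mitochondrial RNA, 5 were lower and 1 higher in tumor. The lower ones included Ptcd2 (log2 -1.05), Elac2, which cuts the 3′ ends of tRNAs (-0.67), the elongation factor Tefm (-0.89) and the transcription factor Tfb2m (-0.86), with adjusted p from 6.16e-05 to 0.0173. Slirp, which binds mitochondrial messages, was the higher one (log2 0.41, adjusted p = 0.0161). Pprc1, a coactivator of biogenesis genes, was lower (-0.95), the only call among 9 tested regulators. Vars2, the mitochondrial valine tRNA synthetase, was also lower (-0.84), the only call among 21 genes of its list. Of the ribosomal protein genes 3 were higher and 4 lower. These counts stand beside 8% of all genes higher and 6.89% lower.

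The sorted populations were compared within each tissue. In spleen with vehicle, 3 of 31 mt- genes were lower in CD8 than in CD4 and 0 higher, where 6.14% of all genes were lower and 5.36% higher (11.5% in either direction). Every CD8 library lay below every CD4 library in 15 members (18% of all genes) and above in 0 (18.4%). mt-Cytb stood at 1755, 1939 and 1881 CPM in CD4 and 1311, 1277 and 1294 CPM in CD8 (log2 -0.52 ± 0.10, adjusted p = 0.00269), and the groups do not overlap. mt-Co2 (log2 -0.29, adjusted p = 0.0371) and mt-Atp6 (-0.31, 0.0417) lay just inside the threshold. The count was 1, mt-Cytb alone, without each of CD4 vehicle replicates 2 and 3 and CD8 vehicle replicates 1, 2 and 3. Without CD4 vehicle replicate 1 it was 3, of which 2 were among the original 3. With LCL161 libraries the contrast did not hold: 0 members were lower and mt-Co1 was higher in CD8 (log2 0.36, adjusted p = 0.0228, against 0.013 to 0.263 over 18 alternatives). In the vehicle libraries, 3 of 29 genes for transcription and processing of mitochondrial RNA were higher in CD8 and 0 lower. They were Ptcd2 (log2 1.14, adjusted p = 2.72e-05), Elac2 (0.51) and Tefm (0.76). Among 9 tested biogenesis regulators, Myc (1.53) and Pprc1 (0.67) were higher and Gabpb1 (-0.57) lower. Of 78 mitochondrial ribosomal protein genes 2 were higher, and of 74 nuclear respiratory chain genes 1, with 0 lower in either list. These counts stand beside 5.36% of all genes higher and 6.14% lower. This contrast and that of tumor with spleen in CD8 share the spleen CD8 vehicle libraries. The 8 dendritic cell markers summed to 461 to 1823 CPM in CD4 and 3201 to 3455 CPM in CD8, with 5 of 8 higher, and their part was not tested.

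In tumor with vehicle 0 of 31 mt- genes differed between CD8 and CD4 by edgeR, where 4.12% of all genes did (1.7% higher and 2.42% lower), with 2 at an unadjusted p under 0.05 (19.4% of all genes) and 1 called by DESeq2 and by limma voom. That gene was mt-Rnr1, at 594, 475 and 399 CPM in CD4 and 345, 305 and 305 CPM in CD8, lower without overlap (log2 -0.62 ± 0.21, adjusted p = 0.098). mt-Nd3 was the other, at 43.3 ± 2.14 and 32.1 ± 3.53 CPM (log2 -0.43). mt-Co1 had 2183, 1886 and 2677 CPM in CD4 and 2333, 2294 and 2338 CPM in CD8, and the mt-Rnr2 groups overlapped as well. Every CD8 library lay above every CD4 library in 2 members (12% of all genes) and below in 2 (13.8%).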

How the data were processed

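RNA was measured in 24 libraries. Per the labels' protocols, total RNA came from sorted cells and libraries followed Illumina protocols. Per the submitters' processing notes, the tools were cutadapt and STAR 2.7.3a and the build was GRCm38. The authors deposited 1 table of expected counts per gene symbol, all of whose columns were matched to samples by name. Counting tool, strand setting and multi-mapping were not given in the sources used here. Many deposited values have decimals, so the table was read as estimated counts, and each was rounded to a whole number before testing.

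Genes were tested with edgeR 4.0.16 (R 4.3.3): filterByExpr with a minimum count of 10 left 20203 genes, TMM factors ran from 0.94 to 1.05, and 1 quasi-likelihood model (robust, group means, no other term) took in all 24 libraries (16 residual degrees of freedom, common biological coefficient of variation 0.33). Benjamini-Hochberg adjustment ran over all genes within each of 12 contrasts, with a threshold of 0.05. SE is the log2 difference divided by the square root of F. CPM used TMM-scaled totals and unrounded counts, and logs a prior count of 2 (0.1 CPM added for correlations of tRNA genes). Coordinates are from GENCODE M21 (GRCm38), and copies were found with blastn 2.17.0+. Sequences were read from the GENCODE M21 transcripts. Replicate pairs differed beyond counting error (chi-square per gene 13 to 135 over 24 pairs), so none was counted as 1 library.

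The members, lists and contrasts were chosen with earlier results of these data known. All 13 protein and 2 rRNA genes are named, tRNA genes where tested, and up to 5 called genes per nuclear list and contrast. Alternatives were RLE or no scaling, factors from nuclear genes, no filter, 5 CPM in 3 libraries, DESeq2 1.42.0, limma 3.58.1 voom, only the libraries compared, a replicate block, LCL161 in place of vehicle libraries, and each library left out. Adding nuclear copies was chosen after seeing the data. In data simulated for 20203 genes, edgeR recovered 4.48%, 23.9% and 62.1% of genes changed by log2 0.5, 1 and 2 in spleen CD8, and 7.46%, 25.4% and 50% in spleen CD4. The changed genes, 67, 67 and 66 in that order, were drawn at random from all tested genes, with their own spread. Every group was given each gene's mean level over the 24 libraries. In the real contrasts 8.33% of all genes were called in spleen CD8 and 0.436% in spleen CD4. The rates are therefore neither those of the mt- genes nor those of the real contrasts. Figures used Python 3.11.15 and matplotlib 3.10.9.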

Additional observations from a re-analysis of the deposited data

How the results depend on the processing

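Counts of mt- genes past the threshold are given here where they moved. For LCL161 in spleen CD4, 0 became 2 with DESeq2. In spleen CD8, 11 became 22 with limma voom and 3 to 12 without 1 library. In tumor CD8, 0 became 1 with DESeq2 and 1 with limma voom. For the difference CD8 minus CD4 in spleen, 0 became 1 with DESeq2, 1 with limma voom and 0 to 1 without 1 library. For the difference tumor minus spleen in CD8, 0 became 2 with DESeq2, 5 with limma voom, 1 with only the libraries compared and 0 to 1 without 1 library. Tumor against spleen in CD4 gave 14, but 5 with only the libraries compared and 11 to 14 without 1 library. In CD8 it gave 7, but 11 with RLE scaling, 11 with factors from nuclear genes, 12 with DESeq2, 17 with limma voom, 13 with only the libraries compared, 19 with LCL161 libraries and 5 to 9 without 1 library. CD8 against CD4 in spleen gave 3, but 7 without scaling, 1 with factors from nuclear genes, 1 without a filter, 5 with DESeq2, 8 with limma voom, 1 with a replicate block by number, 1 with a block by number within treatment, and 1 to 3 without 1 library. With LCL161 libraries that contrast turned, to 1 higher. In tumor it gave 0, but 1 with DESeq2 and 1 with limma voom. Leaving out 1 library gave 0 in the remaining contrasts, those of LCL161 in spleen CD4, tumor CD4 and tumor CD8, both other differences and CD8 against CD4 in tumor. Among single genes, 2 turned with LCL161 libraries in place of vehicle: mt-Rnr2 between tumor and spleen in CD8 (log2 -0.55) and mt-Co1 between CD8 and CD4 in spleen (log2 0.36). The cause was not tested. The ratio of shares moved within 1.11 to 1.23, 1.41 to 1.5, 1.01 to 1.1 and 1.04 to 1.1 (spleen CD4, spleen CD8, tumor CD4, tumor CD8) without 1 library. The labels do not tie replicate numbers to mice, and same-numbered libraries did not all deviate together. Of their pairs within a treatment, from other tissues or sorts, 4 of 36 had a correlation over 0.1 (-0.167 to 0.165). Among such pairs with different numbers 2 of 72 did (-0.145 to 0.27), and 0 of 12 same-numbered pairs of vehicle and LCL161 libraries of 1 population did. A library correlated best with its own number in 38 of 72 cases within a treatment, each a choice among 3 libraries. That is a hint from the data and not the design. The replicate block moved no other count beyond 1.5 times. Members with few counts, such as mt-Tv, are limited by depth.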
